A study of Mus musculus with 6 samples.

Results

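The genes described here are the core of the cellular oxygen sensor and a target of it: Hif1a, Epas1, Hif3a, Arnt, Egln1, Egln2, Egln3, Vhl, Hif1an and Ankrd37. They were taken by name from a table of 56941 Ensembl gene IDs, and all 10 were among the 17072 genes that passed a filter on low counts and were tested. The table holds RNA-seq counts of cells selected with beads against CD31, the endothelial adhesion molecule, from lungs of Mus musculus on postnatal day 7. The study compared room air (RA, 21% oxygen, 3 libraries) with hyperoxia (HO, 75% oxygen, 3 libraries), each from postnatal day 0. No strain, genotype, drug or pooling of animals is named, and both groups share the bead selection. Whether replicates were different animals is not said, and p-values here cover only the scatter among the 6 libraries.

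Cells sense oxygen through the hypoxia-inducible factors (HIFs), dimers of an alpha subunit that is broken down in oxygen and a stable beta subunit. Prolyl hydroxylases use oxygen to mark the alpha subunit, the VHL protein then binds it and directs it to the proteasome, and an asparaginyl hydroxylase blocks its contact with coactivators. This control acts on the protein, so RNA levels of these genes do not measure HIF activity. In lung endothelium the main alpha subunit is EPAS1, also called HIF-2 alpha.

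Total counts per library ran from 39379793 to 42343192. Levels are CPM, each count taken relative to the total of its library, after TMM scaling, and changes are log2 fold changes of hyperoxia over room air with approximate 95% limits from edgeR's quasi-likelihood test, adjusted over all genes by Benjamini and Hochberg. The 12 pan-endothelial markers were abundant, summing to between 13198 and 18180.2 CPM in room air and between 10736 and 14828 CPM in hyperoxia. Markers of other lung cells were abundant too. The alveolar type 1 markers rose, 9 of 9, from sums of 3268.5 to 4276 CPM to sums of 7281 to 9124 CPM, and the 9 alveolar type 2 markers summed to between 12497 and 19554 CPM in room air and between 13967 and 17009.8 CPM in hyperoxia. Among vessel types, 4 of 8 general capillary and 4 of 8 arterial markers fell, 4 of 8 venous and 3 of 7 lymphatic markers rose, and 1 of 8 aerocyte markers rose and 1 fell. Of 9 immediate early genes, which warm digestion can induce, 4 rose, and so did 3 of 9 mitochondrially encoded genes. Of the latter DESeq2 called 5 and limma-voom 2. These counts of markers that rose or fell are edgeR calls at an adjusted p below 0.05. Of all genes tested 6.77% were called higher and 4.41% lower. Room air 3 and hyperoxia 2 had the lowest pan-endothelial sums of their groups. Y-linked genes had reads in 4 libraries, all 3 of room air and hyperoxia 2, and almost none in hyperoxia 1 and hyperoxia 3 (0.0472 and 0 CPM). Sex, which such reads mark, was thus partly confounded with group, and the 2 cannot be fully told apart. A fit with Y-linked reads in the model rests its effect of hyperoxia on hyperoxia 2 against room air.

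Most of the oxygen-sensing genes differed between room air and hyperoxia by no more than the libraries did among themselves. Of the 10 members, 1 rose, 0 fell and 9 did not pass by edgeR, while 11.2% of all genes tested were called (6.77% higher, 4.41% lower). The share of members called was therefore close to the background. At an unadjusted p below 0.05 the counts were 2 higher and 0 lower, against 25.2% of all genes in either direction. DESeq2 called 2 higher and 0 lower, and limma-voom 1 higher and 0 lower. Over all 17072 genes tested DESeq2 called 1527 higher and 1243 lower, and limma-voom 1132 higher and 732 lower. The member that rose was Hif1an, the asparaginyl hydroxylase gene. The groups did not overlap at 2 of the 10 members, Hif1an and Egln3, against 30.9% of all genes. The members' median log2 fold change was 0.10, and that of all genes was -0.0093. The median size of change, whatever its direction, was 0.13 for the members and 0.27 for all genes.

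**Figure D1:**
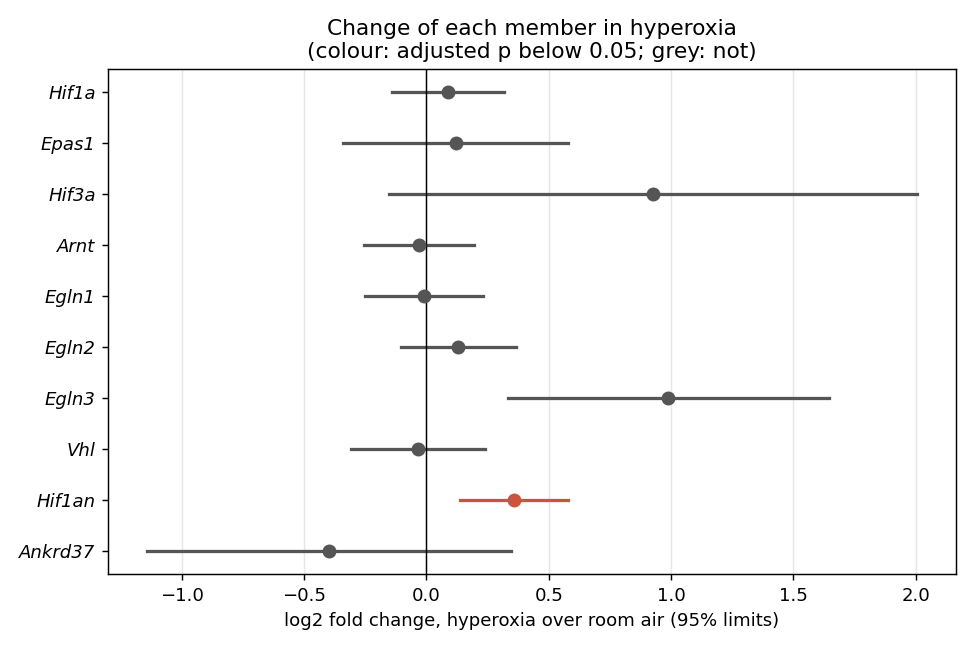
Log2 fold change of each of the 10 members in hyperoxia over room air (x axis), with points for the estimate and lines for the approximate 95% limits. The coloured member, Hif1an (0.36), was called at an adjusted p below 0.05; Egln3 has limits above 0 but an adjusted p of 0.058.

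The levels of these genes spanned a wide range. Per kilobase of exon, which allows genes of different length to be compared, Epas1 stood far above the rest at a mean of 782 CPM per kb over the 6 libraries. Egln2 followed at 29.6 CPM per kb. Hif1a (18.7 CPM per kb) and Egln1 (18.5 CPM per kb) overlapped in their ranges, as did Vhl (13.04 CPM per kb) and Arnt (12.2 CPM per kb). Hif1an stood at 8.46 CPM per kb, below every library's value of Arnt. Ankrd37 (2.38 CPM per kb) and Egln3 (2.01 CPM per kb) overlapped, and Hif3a was lowest at 0.294 CPM per kb. Among the genes tested Epas1 ranked 22 per kilobase and 10 by CPM.

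**Figure D2:**
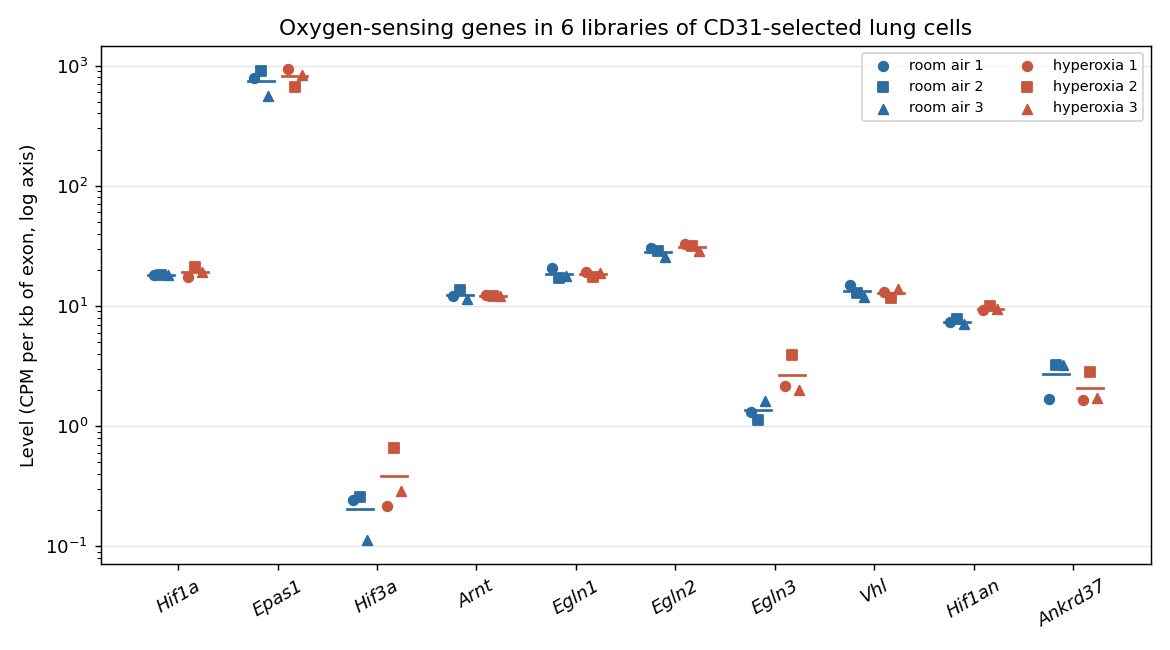
Level of each member in every library (y axis, CPM per kb of exon, log axis), with marks for libraries and short lines for group means. Epas1 lies between 558 and 930 CPM per kb and Hif3a between 0.111 and 0.652 CPM per kb; the 3 hyperoxia marks of Hif1an and of Egln3 lie above their 3 room air marks.

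Of the 3 alpha subunit genes Epas1 came first by level, and none was called in the edgeR test without covariates. Epas1 (ENSMUSG00000024140) was at 4403, 5050.3 and 3117 CPM in room air and at 5198, 3748 and 4713 CPM in hyperoxia. The groups overlapped, and the lowest library of each was the one with the lowest pan-endothelial sum, room air 3 and hyperoxia 2. The change was small beside that spread (log2 fold change 0.12, SE 0.21, limits -0.34 to 0.58, adjusted p = 0.771). It was -0.056 without room air 3. When Y-linked reads entered the model it was -0.16, a fit in which the effect of hyperoxia rests on hyperoxia 2 against room air. Epas1 made up 96.8% to 98.1% of the per-kilobase level of the 3 alpha genes in room air and hyperoxia alike.

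Set against the endothelial markers in the same library, Epas1 was higher in hyperoxia. It equalled 24.2%, 28.9% and 23.6% of the pan-endothelial sum in the room air libraries and 35.1%, 34.9% and 34.3% in the hyperoxia libraries, so that the groups did not overlap. The ratio was 1.36-fold higher (log2 difference 0.45, two-sided exact permutation test p = 0.1, the smallest that 3 against 3 allows). This ratio was chosen after the values had been seen. Taken against each marker alone, Epas1 was higher in every hyperoxia library than in any room air library for 9 of the 12 markers and overlapped for Kdr, Erg and Emcn. These 12 ratios share Epas1 as numerator and are not separate results. The denominator moved: of the 12 markers 1 fell and 0 rose, and their median log2 fold change was -0.32. Lung epithelium also expresses Epas1. The alveolar type 1 markers rose in the same libraries (9 of 9, median log2 fold change 1.24) and of the alveolar type 2 markers 0 of 9 were called by edgeR and limma-voom and 1 by DESeq2, with 2 at an unadjusted p below 0.05; their part in the ratio was not tested. In such mixed samples fewer cells of a type and less RNA per cell cannot be told apart.

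**Figure D3:**
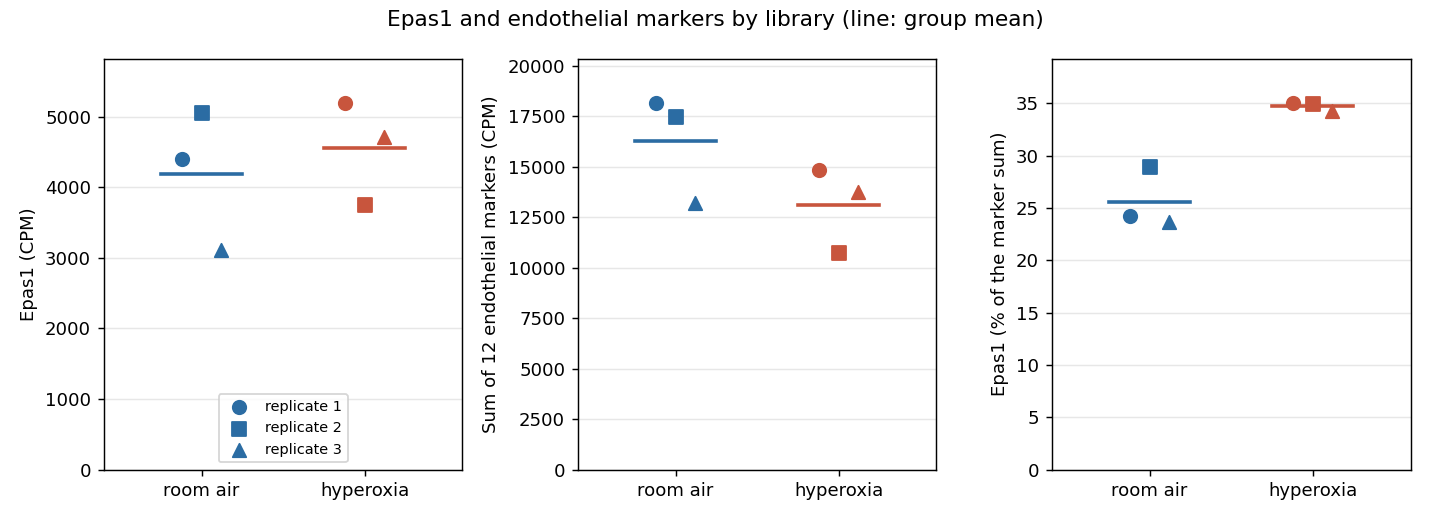
Epas1 in CPM (left), the sum of 12 pan-endothelial markers in CPM (middle) and Epas1 as a percentage of that sum (right), by group, with a mark for each library and a line for the group mean. The groups overlap in the left and middle panels; in the right panel the hyperoxia libraries lie at 34.3% to 35.1% and the room air libraries at 23.6% to 28.9%.

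Hif1a (ENSMUSG00000021109), the broadly expressed alpha subunit gene, was at 106, 107 and 107 CPM in room air and at 103, 123 and 113 CPM in hyperoxia. The room air libraries were nearly equal and lay inside the hyperoxia range (107 ± 0.610 against 113 ± 10.04 CPM, mean ± SD, n = 3 each). The log2 fold change was 0.087 (SE 0.10, adjusted p = 0.655). The limits of -0.14 to 0.32 span from a fall to 0.907-fold to a rise to 1.24-fold. Of its exonic bases 8.11% overlap Gm15283 on the other strand or Gm49321 on the same strand. The count of Epas1 over that of Hif1a within a library, which needs no scaling, was 41.5, 47.3 and 29.1 in room air and 50.4, 30.4 and 41.6 in hyperoxia. Those ratios overlapped (log2 difference 0.052, two-sided exact permutation test p = 0.7), and the log2 difference was -0.15 without room air 3 and -0.12 without hyperoxia 1.

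Hif3a (ENSMUSG00000004328), whose product can restrain the other alpha subunits, was close to the lower end of what these libraries measure. It had 67, 67 and 31 counts in room air and 60, 177 and 76 in hyperoxia, or 1.62, 1.71 and 0.748 CPM against 1.45, 4.37 and 1.93 CPM. Hyperoxia 2 stood above all other libraries, and hyperoxia 1 lay below room air 1 and room air 2, so the groups overlapped. The log2 fold change was 0.93 (SE 0.49, limits -0.15 to 2.01, adjusted p = 0.274). It was 0.32 without hyperoxia 2 (adjusted p = 0.740) and 0.0092 without both hyperoxia 2 and room air 3 (adjusted p = 0.994). When Y-linked reads entered the model it was 1.69 (adjusted p = 0.0378), a fit in which the effect of hyperoxia rests on hyperoxia 2 against room air. Hyperoxia 2 also had the highest sums of the fibroblast markers (1024 CPM against 569 to 808 in the other libraries), of the smooth muscle and pericyte markers (526 against 246 to 369) and of the airway epithelium markers (436 against 181 to 367). By edgeR 0 of the 9, 8 and 6 genes of these lists were called, with 1, 0 and 1 at an unadjusted p below 0.05; DESeq2 called 1, 0 and 1 and limma-voom 0 of each. Tagln, Lum, Fgf10 and Krt5 stayed at or below 1.52 CPM in every library. Hyperoxia 2 had the highest alveolar type 1, mesothelium and mitochondrially encoded sums too, and the fewest genes detected (19471 against 21784 to 23989 in the others). The part of other cells and of library quality in the Hif3a values was not tested.

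Arnt, the beta subunit gene (ENSMUSG00000015522), ranged from 91.4 to 108 CPM in room air and from 95.9 to 98.4 CPM in hyperoxia. The hyperoxia libraries lay inside the room air range. Its log2 fold change was -0.030 (SE 0.10, limits -0.26 to 0.20, adjusted p = 0.893), and 0.039 without room air 2.

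The prolyl hydroxylases fell into an abundant pair and a scarce member. Egln2 made up 56.8% to 61.1% of their summed per-kilobase level, Egln1 32.8% to 39.6% and Egln3 2.41% to 7.39%. Egln1 encodes PHD2, the hydroxylase that sets HIF-1 alpha levels in most cells. It ranged from 61.4 to 74.1 CPM in room air and from 62.1 to 68.8 CPM in hyperoxia, with the hyperoxia libraries inside the room air range (log2 fold change -0.0083, SE 0.11, limits -0.25 to 0.23, adjusted p = 0.972). The value was 0.066 without room air 1 and 0.038 without hyperoxia 2. Egln2, which encodes PHD1, was at 85.2, 80.1 and 72.0 CPM in room air and at 91.1, 88.0 and 80.7 CPM in hyperoxia. The groups overlapped (log2 fold change 0.13, SE 0.11, limits -0.10 to 0.37, adjusted p = 0.493).

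Egln3 (ENSMUSG00000035105) encodes PHD3, which HIF itself induces in many cells. It was at 3.46, 3.01 and 4.30 CPM in room air and at 5.69, 10.4 and 5.33 CPM in hyperoxia, where the counts were 235, 419 and 210 against 143, 118 and 178. Every hyperoxia library was above every room air library, and hyperoxia 2 was the highest. The level was 1.98-fold that in room air (log2 fold change 0.99, SE 0.30, limits 0.33 to 1.65), and the adjusted p of 0.058 missed the threshold. Without hyperoxia 2 the log2 fold change was 0.62 (adjusted p = 0.19). DESeq2 called the gene (adjusted p = 0.015), as did edgeR with no filter on low counts (0.00529), and limma-voom did not. Of all genes DESeq2 called 1527 higher and edgeR 1156. With Y-linked reads in the model edgeR called it too, at a log2 fold change of 1.53. In that fit the effect of hyperoxia rests on hyperoxia 2, the highest library, against room air. Of the 16 alternatives apart from the thresholds 3 called Egln3, and the adjusted p ran from 0.00529 to 0.19. The share of Egln3 in the prolyl hydroxylases was 2.48%, 2.41% and 3.57% in room air and 3.97%, 7.39% and 4.03% in hyperoxia. The fibroblast, smooth muscle and airway sums were highest in hyperoxia 2 as well, and so were the alveolar type 1, mesothelium and mitochondrially encoded sums. That library also had the fewest genes detected (19471 against 21784 to 23989 in the others). The part of other cells and of library quality in the Egln3 values was not tested.

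Vhl (ENSMUSG00000033933), the substrate receptor gene of the ubiquitin ligase, was at 44.8, 38.2 and 35.6 CPM in room air and at 39.4, 35.1 and 41.3 CPM in hyperoxia. The groups overlapped along most of their range (log2 fold change -0.035, SE 0.12, limits -0.31 to 0.24, adjusted p = 0.897). It became 0.056 without room air 1 and 0.031 without hyperoxia 2.

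Hif1an (ENSMUSG00000036450) encodes FIH, the hydroxylase that keeps HIF alpha from its coactivators. It was at 48.7, 51.2 and 47.0 CPM in room air and at 60.7, 65.7 and 61.9 CPM in hyperoxia. The libraries of each group lay close together and the groups did not overlap. The gene rose from 49.0 ± 2.13 to 62.8 ± 2.62 CPM (mean ± SD, n = 3 each), 1.28-fold with limits of 1.10 to 1.49 (log2 fold change 0.36, SE 0.10, adjusted p = 0.0433). The call was lost with any library left out: without room air 1, 2 or 3 the adjusted p was 0.0991, 0.0745 and 0.104, and without hyperoxia 1, 2 or 3 it was 0.0942, 0.116 and 0.134. It was also lost with DESeq2 size factors (0.0504), library size only (0.0506), no filter on low counts (0.0568), Y-linked reads in the model (0.0637) and hyperoxia 2 and room air 3 left out together (0.169). The log2 fold change stayed between 0.28 and 0.42 throughout. DESeq2 and limma-voom called the gene (0.0228 and 0.0469). The alveolar type 1 markers, 9 of 9 of which rose, did not overlap between the groups either. The sums of the venous, lymphatic, mesothelium, immediate early and mitochondrially encoded lists were also higher in every hyperoxia library than in any room air library. Those of the arterial and erythroid markers were lower without overlap. Of all genes tested 16.5% were higher without overlap. The part of other cells and of handling in the Hif1an values was not tested.

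Ankrd37 (ENSMUSG00000050914), an ankyrin repeat gene that HIF-1 induces in hypoxia, was the member with the lowest log2 fold change. It was at 2.59, 4.92 and 5.00 CPM in room air and at 2.54, 4.30 and 2.64 CPM in hyperoxia. Room air 1 was as low as hyperoxia 1 and hyperoxia 3, and the groups overlapped. The log2 fold change was -0.40 (SE 0.34, limits -1.14 to 0.35, adjusted p = 0.513), and 0.045 when Y-linked reads entered the model. Of its exonic bases 26.4% overlap Lrp2bp or Ufsp2 on the other strand, so its counts are uncertain where strand was not used.

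HIF binds DNA at a short core, ACGTG or GCGTG, within hypoxia response elements. The core was searched on both strands, overlapping matches included, in the 250 bases before each gene start in RefSeq (GRCm38.p6), where 9 of the 10 members matched an entry and Epas1 was the other. These members have 10 windows, of which 8 held a match, as did 38.6% of all 32851 windows of that length. Vhl and Hif1an had none, Arnt and Egln3 had 1 each, Hif3a and Egln1 had 2 each, Hif1a had 3, and Egln2, which has 2 starts, had 4 in one window and 1 in the other. The windows of the gene that rose, of the prolyl hydroxylase that missed the threshold and of the HIF target are shown with the core, on either strand, in capitals. They are Hif1an (chr19:44562604-44562853, plus strand), Egln3 (chr12:54203875-54204124, minus strand) and Ankrd37 (chr8:45999851-46000100, minus strand).
Hif1an: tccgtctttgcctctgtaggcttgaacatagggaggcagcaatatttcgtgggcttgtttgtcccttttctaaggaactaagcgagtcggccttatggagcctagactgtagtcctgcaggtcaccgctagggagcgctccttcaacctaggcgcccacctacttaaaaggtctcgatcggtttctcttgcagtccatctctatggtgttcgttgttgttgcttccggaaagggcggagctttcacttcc
Egln3: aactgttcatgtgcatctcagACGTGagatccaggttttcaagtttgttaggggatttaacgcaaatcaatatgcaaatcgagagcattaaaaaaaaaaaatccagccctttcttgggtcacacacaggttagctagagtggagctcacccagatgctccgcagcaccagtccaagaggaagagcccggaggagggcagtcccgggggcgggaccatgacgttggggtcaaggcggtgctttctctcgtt
Ankrd37: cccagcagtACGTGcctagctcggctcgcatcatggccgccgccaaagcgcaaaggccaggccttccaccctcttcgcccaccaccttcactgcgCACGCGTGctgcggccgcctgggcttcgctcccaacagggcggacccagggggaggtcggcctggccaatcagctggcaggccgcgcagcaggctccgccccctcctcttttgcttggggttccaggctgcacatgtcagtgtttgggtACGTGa
Ankrd37 held 4 matches, at 241, 155, 152 and 6 bases before the start, of which the middle pair overlap; 16.7% of all windows held 2 or more. Egln3 held its match at 229 bases before the start. A match describes these letters and is not evidence of binding.

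Some HIF targets were called, most of them higher. Of 17 genes of glucose uptake and glycolysis, 3 rose, 1 fell and 13 missed the threshold, and the list's median was 0.18 on the log2 scale. Of all genes tested 6.77% were called higher and 4.41% lower, and their median was -0.0093. An unadjusted p below 0.05 was reached by 6 of the 17, against 25.2% of all genes, and DESeq2 called 5 and limma-voom 4. Over all genes DESeq2 called 1527 higher and 1243 lower, more than edgeR did. Slc2a1, the glucose transporter gene GLUT1, was at 26.9, 21.8 and 23.3 CPM in room air and at 34.6, 38.4 and 35.8 CPM under hyperoxia, a log2 rise of 0.59 (SE 0.12) with an adjusted p of 0.0115. Pfkfb3, which makes the activator of phosphofructokinase, was at 24.9, 29.3 and 25.1 CPM in room air and at 31.6, 43.7 and 37.9 CPM under hyperoxia, a log2 rise of 0.51 (SE 0.14) with an adjusted p of 0.0417. Aldoa, the aldolase gene, was at 240.3, 208 and 220.2 CPM in room air and at 302, 309.8 and 296 CPM under hyperoxia, a log2 rise of 0.44 (SE 0.11) with an adjusted p of 0.0267. These 3 genes, named because they were called, were higher in every hyperoxia library than in any room air library. Over the whole list the groups did not overlap at 6 of the 17, against 30.9% of all genes. Pfkl, a phosphofructokinase gene, was the gene that fell. It was at 153, 127 and 103 CPM in room air and at 82.6, 72.7 and 80.9 CPM in hyperoxia, with every hyperoxia library lower (log2 fold change -0.70, SE 0.14, adjusted p = 0.0105). Those that rose were sensitive to single libraries: 0 of the 17 rose without room air 2, and 1 rose without hyperoxia 2, without hyperoxia 3, or without hyperoxia 2 and room air 3 together. The call of Slc2a1 was lost without room air 2 (adjusted p = 0.0544). That of Pfkfb3 was lost on leaving out room air 1 (0.122), room air 2 (0.0635), room air 3 (0.0951), hyperoxia 2 (0.125) or hyperoxia 3 (0.126). That of Aldoa was lost without room air 2 (0.0992), hyperoxia 1 (0.0839), hyperoxia 2 (0.0733) or hyperoxia 3 (0.101), and with Y-linked reads in the model (0.0679). Aldoa has near-identical copies in the genome, so its counts are uncertain.

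Of 23 HIF targets with other functions, 4 rose, 0 fell and 19 missed the threshold by edgeR. The median was 0.17 on the log2 scale, and 7 were at an unadjusted p below 0.05. The shares over all genes were 6.77% called higher, 4.41% called lower and 25.2% at that unadjusted p. DESeq2 and limma-voom each called 4. Bhlhe40, a transcriptional repressor gene, was at 79.4, 102 and 94.3 CPM in room air and at 124, 167 and 178 CPM under hyperoxia, a log2 rise of 0.77 (SE 0.15) with an adjusted p of 0.00895. Angptl4, a lipoprotein lipase inhibitor gene, was at 12.1, 14.5 and 11.7 CPM in room air and at 19.2, 19.5 and 21.6 CPM under hyperoxia, a log2 rise of 0.65 (SE 0.15) with an adjusted p of 0.0177. Lox, the lysyl oxidase gene of matrix cross-linking, was at 69.4, 71.2 and 71.3 CPM in room air and at 94.4, 129.5 and 99.2 CPM under hyperoxia, a log2 rise of 0.61 (SE 0.13) with an adjusted p of 0.0121. At these 3 genes too, named because they were called, the groups did not overlap. Over the whole list there was no overlap at 8 of the 23, against 30.9% of all genes. Bhlhe40, Angptl4 and Lox can be induced by HIF and by other signals, and which signal acted here was not tested. Angptl4 missed the threshold with room air 1, room air 3 or hyperoxia 3 left out in turn (adjusted p of 0.0608, 0.0502 and 0.0893). Leaving out both hyperoxia 2 and room air 3, 2 of the 23 rose, with Bhlhe40 at 0.0514 and Angptl4 at 0.0562. With 9 of 9 alveolar type 1 markers and 4 of 9 immediate early genes higher in the same libraries, the part of other cells and of handling in these rises was not tested.

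**Figure D4:**
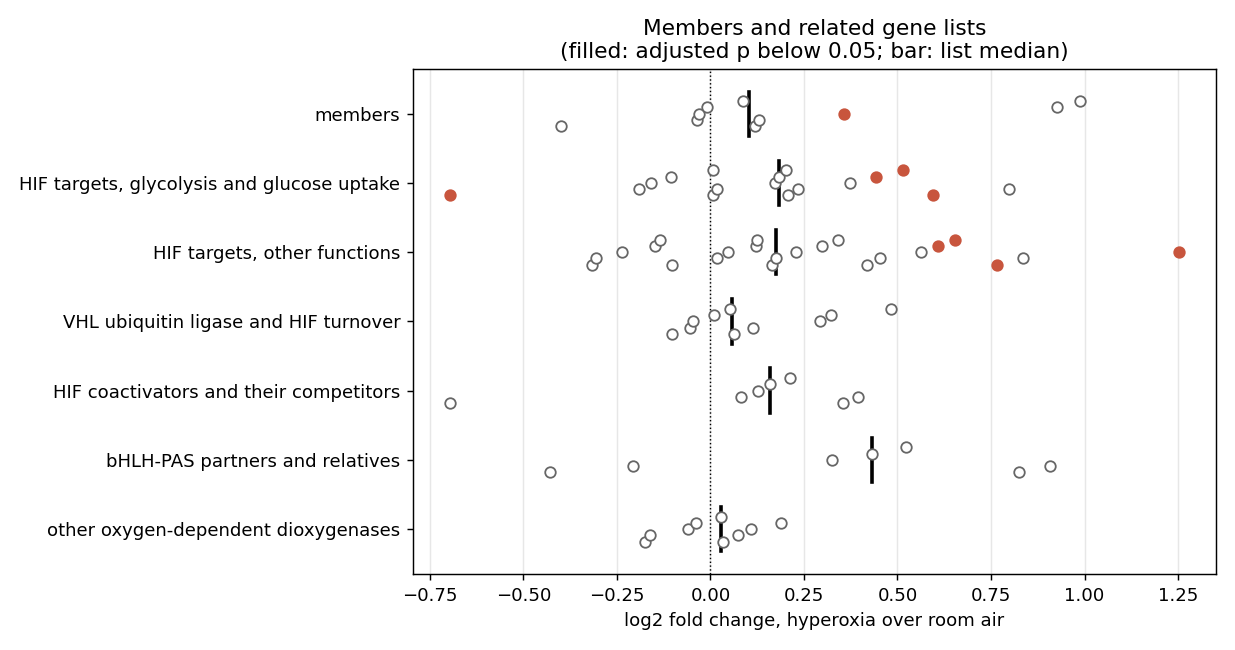
Log2 fold change of hyperoxia over room air (x axis) for the 10 members and for each gene of 6 related lists (rows), with filled points for an adjusted p below 0.05 and a bar for the median of each row. Filled points occur among the members (Hif1an) and the 2 lists of HIF targets, 7 to the right of 0 among the targets and 1, Pfkl, to the left.

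By edgeR no gene of the other lists around the sensor was called. DESeq2 called more of all genes than edgeR did, 1527 higher and 1243 lower. Of the 10 genes of the VHL ligase and of HIF turnover, 0 were called by edgeR (median log2 fold change 0.059, 2 at an unadjusted p below 0.05, 1 called by DESeq2 and 0 by limma-voom). Its most abundant genes were Hsp90ab1, a chaperone gene (log2 fold change 0.11, adjusted p = 0.668), and Rack1, a scaffold gene (0.32, adjusted p = 0.157), which was higher in every hyperoxia library than in any room air library. Of the 7 coactivators and their competitors, 0 were called by edgeR, DESeq2 or limma-voom, with 1 at an unadjusted p below 0.05 and a median of 0.16. Ep300 and Crebbp, the acetyltransferase genes that HIF recruits, had log2 fold changes of 0.13 (adjusted p = 0.598) and 0.083 (adjusted p = 0.758). Of 7 tested bHLH-PAS relatives of the HIF subunits, 0 were called by edgeR and limma-voom and 1 by DESeq2 (median 0.43, 2 at an unadjusted p below 0.05). Among them Ahr, the aryl hydrocarbon receptor gene, had -0.21 (adjusted p = 0.534), and Arntl, the clock factor gene also called Bmal1, had 0.43 (adjusted p = 0.116) with no overlap between the groups. The groups did not overlap at 3 of these 7 genes, against 30.9% of all genes. The list's median, which was Arntl's own value, was above those of both lists of HIF targets. This list holds scarce genes: in room air 1 Ahr alone made up 358 of its summed 375 CPM, and Ahrr reached 0 CPM. Of 9 other oxygen-dependent dioxygenase genes, 0 were called by edgeR, DESeq2 or limma-voom and 0 had an unadjusted p below 0.05 (median 0.028). Tet3, of DNA demethylation, had -0.038 (adjusted p = 0.902) and Kdm4a, of histone demethylation, -0.059 (adjusted p = 0.796).

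The genes whose log2 CPM followed Epas1 most closely over the 6 libraries, among 10846 with a mean of at least 5 CPM, were Nup214, Thra and Smad4 (Pearson r of 0.983, 0.983 and 0.982). Like Epas1 they were lowest in room air 3 and next lowest in hyperoxia 2, and their means differed little between the groups. Those closest to Hif1an were Nptx1, Timp3 and Wnk1 (r of 0.997 for each). All 3 were higher in every hyperoxia library than in any room air library, and highest in hyperoxia 2. Nptx1 had means of 15.4 and 34.7 CPM, Timp3 of 320.0 and 656 CPM and Wnk1 of 259 and 367 CPM in room air and hyperoxia. All 3 were called by edgeR, but Wnk1 was not once room air 1, hyperoxia 2 or hyperoxia 3 was left out (adjusted p of 0.0663, 0.0655 and 0.0716). These r describe 6 libraries that share their groups. The genes were picked for likeness over those same libraries, so the patterns they share with Epas1 or Hif1an follow from the choice. Of Timp3's exonic bases 21.3% overlap Syn3 on the other strand.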

How the data were processed

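The deposited values were raw counts per Ensembl gene ID in 6 libraries. Per the submitters' processing notes, the tools were DESeq2, featureCounts, HISAT2 2.2.1 and Subread 2.0.6 on GRCm39, listed without their roles. For annotation release, strand setting and multimapping reads nothing is given in the sources used here. Sample titles gave each library's group and number.

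Symbols matched 51948 IDs. Of IDs sharing a symbol, that with the most counts was taken. Exon lengths and overlaps came from GENCODE M21 (GRCm38), so gene coordinates are not given. No library was a duplicate: within groups the lowest chi-square over its degrees of freedom was 11.5.

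Versions were DESeq2 1.42.0, edgeR 4.0.16, limma 3.58.1 and R 4.3.3. Genes were kept by filterByExpr (minimum count 10, minimum total 15), scaled by TMM and tested, with no covariate, by the robust quasi-likelihood method of edgeR. A call needed an adjusted p under 0.05. Each standard error was the absolute log2 fold change divided by the root of F. The test was tried on simulated counts.

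Members and lists were chosen with earlier results of these data known. Named were all members; up to 4 called genes of each list by size of change, or the 2 most abundant where none was called; and the 3 genes most correlated with Epas1 and with each called member (log2 CPM, prior count 2). Single markers named were chosen after their values were seen. One gene that the rule names is not reported here. Alternatives were other scalings (DESeq2 size factors, upper quartile, library size only), other filters, thresholds of 0.01 and 0.1, DESeq2, limma-voom, a replicate block and each library left out. A model term for the presence of Y-linked reads, a fit without both hyperoxia 2 and room air 3, and the Epas1 to marker ratio were chosen after seeing the data.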

Additional observations from a re-analysis of the deposited data

How the results depend on the processing

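The scalings moved the median of all genes by at most 0.025 (log2, downward). The 1 member called higher became 0 with DESeq2 size factors, library size only, the replicate block or a threshold of 0.01. The count was also 0 with both hyperoxia 2 and room air 3 left out, and with any single library left out (0 to 0). It was 2 with DESeq2 or a threshold of 0.1, Hif1an and Egln3 each time. With Y-linked reads in the model it was 2 as well, but these were Egln3 and Hif3a. With no filter on low counts the 1 called was Egln3 in place of Hif1an. In all of these 0 members were called lower. With the replicate block Hif1an had an adjusted p of 0.0863, Aldoa of 0.0791 and Wnk1 of 0.0518. Replicate numbers are not stated to mark a shared litter or day, so the block is given only as an alternative. Same-numbered libraries' deviations from their group means correlated at 0.11, -0.039 and -0.090. So few libraries cannot settle whether the numbers pair them.

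Over all genes, 1156 higher became 556 and 1619 at thresholds of 0.01 and 0.1, and 681 to 1095 with a library left out. They became 1591 with no filter on low counts, 1527 with DESeq2 and 1403 with Y-linked reads in the model. The 753 lower became 1243 with no filter on low counts, 1243 with DESeq2, 1223 with Y-linked reads in the model, 233 and 1235 at thresholds of 0.01 and 0.1, and 376 to 749 with a library left out. The higher glycolysis genes numbered 0 and 5 at thresholds of 0.01 and 0.1, 1 with both hyperoxia 2 and room air 3 left out and 0 to 3 with a library left out; the lower became 0 at 0.01. The other HIF targets that rose numbered 2 at 0.01, 2 with both hyperoxia 2 and room air 3 left out and 3 to 4 with a library left out. VHL ligase genes called higher numbered 1 with DESeq2 or a threshold of 0.1. Coactivator genes called higher numbered 1 with Y-linked reads in the model. The bHLH-PAS relatives called higher numbered 1 with no filter, DESeq2 or a threshold of 0.1, and 1 was lower with Y-linked reads in the model. The causes were not tested.

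Among genes that were not called, signs changed with Y-linked reads in the model for Epas1 (-0.16), Ankrd37 (0.045), Nup214 (-0.13), Thra (-0.10) and Smad4 (-0.066), and for Thra (-0.041) with both hyperoxia 2 and room air 3 left out. With a library left out, log2 fold changes ran from -0.056 to 0.27 for Epas1, -0.087 to 0.039 for Arnt, -0.065 to 0.066 for Egln1, -0.11 to 0.056 for Vhl, -0.039 to 0.24 for Crebbp, -0.14 to 0.14 for Tet3, -0.14 to 0.030 for Kdm4a, -0.022 to 0.16 for Nup214, -0.095 to 0.14 for Thra and -0.022 to 0.15 for Smad4, and the Epas1 to Hif1a log2 difference from -0.15 to 0.25. The Epas1 to marker log2 difference ran from 0.39 to 0.54, and its replicate block gave p = 0.25, the smallest that 3 pairs allow by an exact permutation test. Single counts of Hif3a (31 to 177) and Ankrd37 limit what these depths can show.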
